A study of Schizosaccharomyces pombe with 9 samples.

Results

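The 10 genes described here encode the glucose-sensing cAMP-PKA pathway of fission yeast and the zinc-finger factors that act beside it. They were picked by gene identifier and are 10 of the 5323 features in the table: the receptor gene *git3* (SPCC1753.02c), the G protein genes *gpa2* (SPAC23H3.13c), *git5* (SPBC32H8.07) and *git11* (SPBC215.04), the adenylate cyclase gene *cyr1* (SPBC19C7.03), the phosphodiesterase gene *cgs2* (SPCC285.09c), the PKA subunit genes *cgs1* (SPAC8C9.03) and *pka1* (SPBC106.10), and the factor genes *rst2* (SPAC6F12.02) and *scr1* (SPBC1D7.02c). All 10 passed the filter on low values, a mean over the libraries of 1 or more TPM (a read count divided by gene length and scaled to a fixed total within its library), as did 5086 features in all.

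Poly(A) RNA was sequenced from *Schizosaccharomyces pombe* cultures of 3 strains in 3 media, and each of the 9 conditions had 1 library. Beside the wild-type, the strains were *tup11∆/tup12∆*, which lacks the co-repressors Tup11 and Tup12, and *tup11∆/tup12∆/php5∆*, which also lacks Php5, part of the factor that binds CCAAT boxes. Cells were kept for 2 h in glucose-rich medium (yeast extract with 6% glucose), in glucose starvation medium (yeast extract with 0.1% glucose and 3% glycerol) or in nitrogen starvation medium (a minimal medium without a nitrogen source and with 1% glucose). The nitrogen-starved cultures therefore also differed from the glucose-rich ones in glucose and in the base of the medium. The study's strain list gives the deletions as *tup11::ura4 tup12::ura4* and *php5::kanMX6*, most often together with *ura4-D18* and other auxotrophic markers. Which of the listed strains gave the RNA is not given in the sources used here. With no replicate, every difference below compares 2 libraries and none was tested, and the intervals (exact, 95%) cover counting error only.

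When glucose is plentiful, the receptor Git3 activates the Gα subunit Gpa2, which stimulates the adenylate cyclase Cyr1. The cAMP it makes releases the catalytic subunit Pka1 from the regulatory subunit Cgs1, and the phosphodiesterase Cgs2 breaks cAMP down again. Active PKA represses genes for the use of other carbon sources and for sexual development, in part by inhibiting the activator Rst2. Scr1 is a zinc-finger repressor that keeps such genes off in glucose. These steps are mostly regulated on the proteins, whereas the values below are levels of mRNA.

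Motifs that the study works with were searched for in the 250 bases before and 50 after each gene's annotated start (RefSeq annotation of ASM294v3, both strands). The cAMP-responsive element (CRE, searched as TGACGT), which is bound by ATF/CREB factors such as Atf1, was found in 5 of the 10 promoters, those of *gpa2*, *git5*, *cyr1*, *cgs2* and *cgs1*. It was found in 5.91% of 5112 promoters of the genome. The 40 bases around each match are shown because the element recurs in genes for 4 different steps of the pathway. The element is in capitals, and positions count from -1, the base just before the start.
gpa2, -45, chrI:2519262-2519301, minus strand: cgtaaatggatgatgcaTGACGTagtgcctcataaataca
git5, -65, chrII:1463767-1463806, plus strand: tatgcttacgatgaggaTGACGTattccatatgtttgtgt
cyr1, -146, chrII:2819639-2819678, plus strand: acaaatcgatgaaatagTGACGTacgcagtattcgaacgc
cgs2, -59, chrIII:1812680-1812719, minus strand: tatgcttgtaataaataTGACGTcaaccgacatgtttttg
cgs1, -63, chrI:3642949-3642988, plus strand: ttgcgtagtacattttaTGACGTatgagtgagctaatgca

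In *cgs2* the element is followed by CA, so it also matched on the other strand, at -57. No match was found in the windows of *git3*, *git11*, *pka1*, *rst2* or *scr1*. The stress response element (STRE, searched as CCCCTC or CCCCGC), the kind of site that Rst2 binds, was found in *gpa2* and *scr1*, against 3.11% of all promoters. The CCAAT box (searched as CCAAT), the site of the CCAAT-binding factor, was found in *gpa2*, *git5*, *git11* and *scr1*, against 42.2% of all promoters. The motifs do not overlap one another. The promoters of *gpa2* and *scr1* are shown because each holds a STRE and a CCAAT box, because *gpa2* was past 2-fold between *tup11∆/tup12∆* and wild-type cells in every medium, and because the starvation ratios of *scr1* differed in order between the strains. The motifs are in capitals.
gpa2 promoter, chrI:2519240-2519489, minus strand, the 250 bases up to -1: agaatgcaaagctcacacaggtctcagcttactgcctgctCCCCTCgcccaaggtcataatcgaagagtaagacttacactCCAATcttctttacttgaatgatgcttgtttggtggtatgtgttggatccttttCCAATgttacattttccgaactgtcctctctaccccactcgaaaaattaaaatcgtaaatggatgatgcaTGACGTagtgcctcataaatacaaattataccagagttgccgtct
scr1 promoter, chrII:1751843-1752092, plus strand, the 250 bases up to -1: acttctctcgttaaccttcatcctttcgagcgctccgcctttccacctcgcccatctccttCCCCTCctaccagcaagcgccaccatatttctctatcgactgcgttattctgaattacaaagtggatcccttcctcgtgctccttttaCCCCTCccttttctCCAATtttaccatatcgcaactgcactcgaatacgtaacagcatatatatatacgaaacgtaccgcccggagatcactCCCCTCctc

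The *gpa2* stretch shown holds a STRE at -210, CCAAT boxes at -169 and -115 and the CRE at -45. The *scr1* stretch holds STREs at -189, -101 and -9 and a CCAAT box at -87. In the 50 bases after the start, not shown, *gpa2* has a further CCAAT box and *scr1* a further STRE (CCCCGC). They begin 41 and 20 bases after the first base of the gene. A match describes the letters of the window and not a bound site. For *pka1* the annotation gives no 5′ untranslated part, so its window lies directly before the coding sequence.

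**Figure D1:**
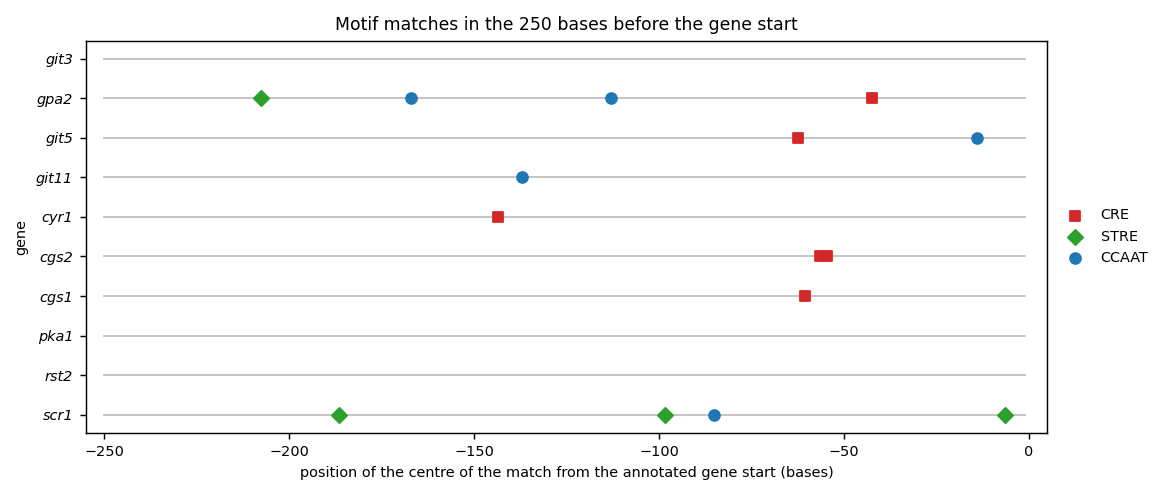
Position of each CRE, STRE and CCAAT match in the 250 bases before the annotated start of the 10 genes (x axis, bases from the start to the centre of the match; y axis, gene). Matches lie in *gpa2*, *git5*, *git11*, *cyr1*, *cgs2*, *cgs1* and *scr1*, and the rows of *git3*, *pka1* and *rst2* are empty; the paired squares of *cgs2* are 1 element read on both strands.

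The libraries held 36652045 to 54303622 reads on the counted genes. The 10 features with most transcripts took from 7.54% of the TPM in wild-type glucose-rich cells to 18.2% in glucose-starved *tup11∆/tup12∆/php5∆* cells. Median-of-ratios size factors ran from 0.606 in that last library to 1.25 in nitrogen-starved *tup11∆/tup12∆* cells, which follows how the typical feature's share of the mRNA pool differed between libraries. The level of *tup11* was 41.9 to 67.4 TPM in wild-type libraries and at most 0.418 TPM in the others. The level of *php5* was 61.6 to 126 TPM in the wild-type and *tup11∆/tup12∆* libraries and 8.92 to 30.2 TPM in the *tup11∆/tup12∆/php5∆* libraries. Reads on *tup12* did not match the labels in the same way, with 107 to 157 TPM in wild-type libraries and 54.5 to 117 TPM in the libraries labelled *tup12∆*. Which part of each gene was replaced is not given in the sources used here, so *tup11∆/tup12∆* below means the libraries with that label. The marker gene *ura4* had 0 reads in the 3 wild-type libraries and 36.1 to 179 TPM in the 6 others, so the strains differed in this marker as well. The *fbp1* level, a marker of glucose starvation, was 5.11 TPM in wild-type glucose-rich cells, 597 TPM in glucose-starved and 21.0 TPM in nitrogen-starved wild-type cells.

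As a group, the 10 genes had their lowest levels in glucose-rich medium and higher levels in both starvations. Their summed level was 266 TPM in wild-type glucose-rich cells, 631 TPM in glucose starvation and 496 TPM in nitrogen starvation. In *tup11∆/tup12∆* cells it was 388, 991 and 1017 TPM in the same order of media, and in *tup11∆/tup12∆/php5∆* cells 417, 1076 and 782 TPM. These sums were not rescaled. The size factors of the starved libraries ran from 0.606 to 1.25, so the order of the starved sums depends on the scaling. For 9 of the 10 genes the wild-type glucose-rich library was the lowest of the 9, and *git5* was the exception, lowest in *tup11∆/tup12∆* glucose-rich cells. With levels divided by size factors this held for 8 genes, as *cgs2* was then lowest in wild-type nitrogen starvation. The ratio of the highest to the lowest library ran from 2.41 for *git3* to 13.7 for *cgs1*. Reads per gene and library ran from 355 for *cgs1* to 30339 for *pka1*. In a bulk culture, a lower level in every cell and a level lost in a share of the cells cannot be told apart.

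**Figure D2:**
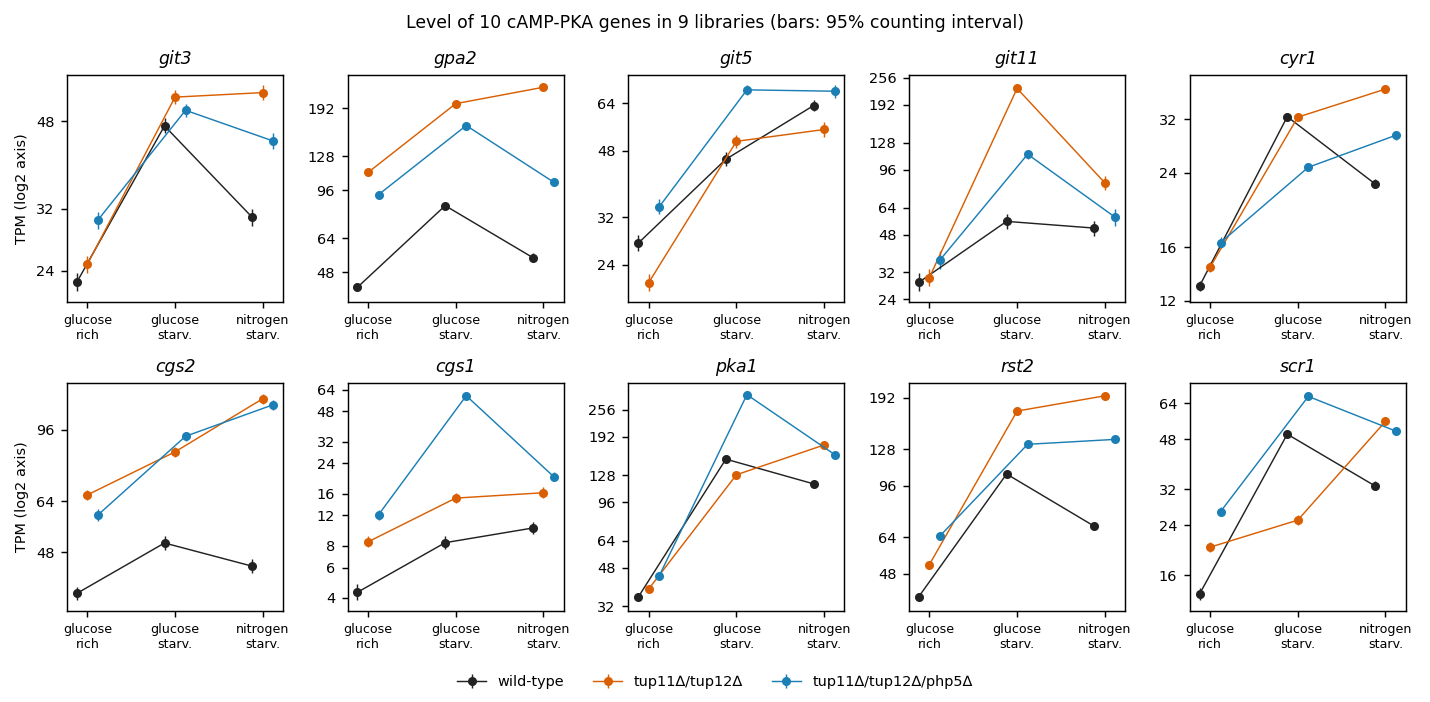
Level of each of the 10 genes (TPM, log2 axis, a range of its own in each panel) in glucose-rich, glucose-starved and nitrogen-starved cells of 3 strains; each point is 1 library and bars are exact 95% counting intervals. The black wild-type line starts lowest in 9 panels, and *gpa2* and *cgs2* have every mutant point above every wild-type point. Glucose-starved *tup11∆/tup12∆/php5∆* cells stand highest for *cgs1*, *pka1* and *scr1*, and for *git5* with an interval that overlaps the next. With levels divided by size factors they were the highest for every gene but *git11*.

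In wild-type cells, glucose starvation went with a higher level of all 10 genes, and *pka1* and *scr1* had the highest ratios to glucose-rich cells. The ratio to glucose-rich cells passed 2 for 5 genes (*git3*, *cyr1*, *pka1*, *rst2*, *scr1*) and lay below 0.5 for 0. Among all features tested, 19.6% passed 2 and 9.62% lay below 0.5. The median log2 ratio of the 10 was 1.02, against 0.31 over all features. *gpa2* lay just inside the threshold, at 1.99. In nitrogen starvation 4 genes passed 2 (*git5*, *cgs1*, *pka1*, *scr1*) and 0 lay below 0.5, against 18.7% and 10.7% of all features, and the median log2 ratio was 0.82 against 0.32.

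*tup11∆/tup12∆* cells had 6 genes past 2 in glucose starvation (*git3*, *git5*, *git11*, *cyr1*, *pka1*, *rst2*) and 0 below 0.5, where 17.7% and 12.6% of all features lay. The median log2 ratio of the 10 was 1.14, against 0.18. In their nitrogen starvation 8 genes passed 2, all but *cgs2* and *cgs1*, and 0 lay below 0.5, against 28.8% and 9.44% of all features. The median log2 ratio was 1.37 against 0.55.

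In *tup11∆/tup12∆/php5∆* cells under glucose starvation, 6 genes passed 2 (*git5*, *git11*, *cgs1*, *pka1*, *rst2*, *scr1*) and 0 lay below 0.5, in a library where 8.08% of all features passed 2 and 38.1% lay below 0.5. The median log2 ratio in TPM was 1.03 for the 10 and -0.70 for all features, on opposite sides of 0. With size factors these medians were 1.71 and -0.02. In nitrogen starvation 3 genes passed 2 (*git5*, *pka1*, *rst2*) and 0 lay below 0.5, against 14.2% and 6.61%, with medians of 0.87 and 0.26.

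All 10 ratios were above 1 in each of the 6 starvation comparisons. With size factors, which bring the median of all features close to 0 on the log2 scale, that held in 4 of them, and in nitrogen starvation *cgs2* in wild-type cells (0.980) and *gpa2* in *tup11∆/tup12∆/php5∆* cells (0.945) lay below 1. The size factors set the split of all features at 12.2% higher and 15.0% lower in wild-type glucose starvation, and at 17.0% higher and 16.8% lower in that of *tup11∆/tup12∆/php5∆* cells. Under this scaling 4 and 10 of the genes passed 2 in those comparisons. The splits in nitrogen starvation became 13.0% and 14.0% in wild-type, 13.4% and 15.5% in *tup11∆/tup12∆* and 9.67% and 9.10% in *tup11∆/tup12∆/php5∆* cells, with 2, 2 and 1 genes past 2. In *tup11∆/tup12∆* glucose starvation they became 13.8% and 14.7%, with 5 genes past 2.

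Between strains the differences were fewer and sat in particular genes. For *tup11∆/tup12∆* over wild-type, 1 gene passed 2 in glucose-rich medium (*gpa2*), 2 in glucose starvation (*gpa2*, *git11*) and 3 in nitrogen starvation (*gpa2*, *cgs2*, *rst2*), and 0 lay below 0.5 in any. Of all features, 3.85%, 4.60% and 5.45% passed 2 in these media, and 1.93%, 6.53% and 4.13% lay below 0.5. Their median log2 ratios in the 3 media were 0.25, 0.45 and 0.74, against -0.19, -0.33 and 0.03 for all features. With size factors 2 genes passed 2 in glucose-rich medium, where 4.42% of all features were higher and 1.55% lower. In glucose starvation 5 genes then passed 2, and the split of all features became 7.22% higher and 2.60% lower. In TPM with a threshold of 1.5, 3, 5 and 9 genes were higher in the 3 media, against 5.88%, 8.34% and 11.9% of all features. In glucose starvation 1 gene was lower, against 27.8%.

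For *tup11∆/tup12∆/php5∆* over *tup11∆/tup12∆*, 0 genes passed 2 or lay below 0.5 in glucose-rich medium, against 4.96% and 1.59% of all features. In glucose starvation 3 genes passed 2 (*cgs1*, *pka1*, *scr1*) and 1 lay below 0.5 (*git11*), against 5.53% and 34.4%. In nitrogen starvation 0 passed 2 and 1 lay below 0.5 (*gpa2*), against 3.74% and 3.30%. The median log2 ratios of the 10 in the 3 media were 0.28, 0.02 and -0.24, against 0.13, -0.64 and -0.11. With size factors the glucose-starved comparison had 4 genes past 2 and 0 below 0.5, and the split of all features became 13.7% and 15.0%. The comparisons within a strain share its glucose-rich library, and the comparisons between strains share the *tup11∆/tup12∆* libraries.

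**Figure D3:**
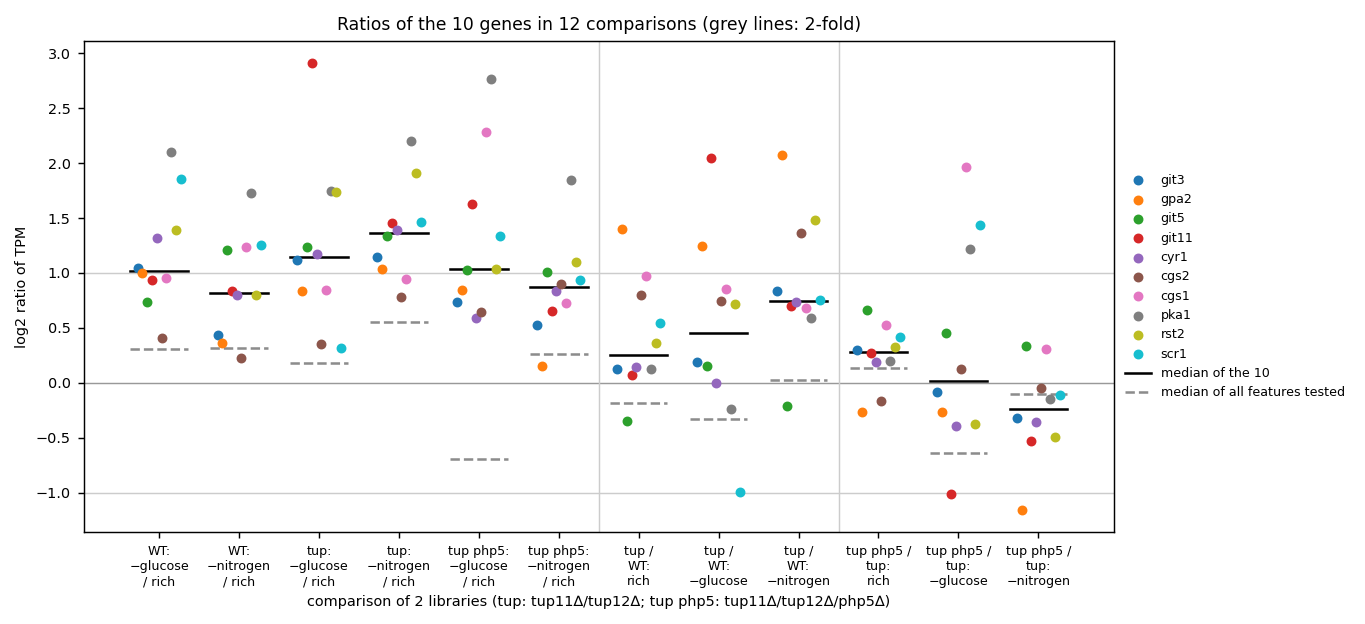
Log2 ratio of TPM of each of the 10 genes (points) in 12 comparisons of 2 libraries, with the median of the 10 (black line) and of all features tested (dashed line). All points lie above 0 in the 6 starvation comparisons on the left; the dashed line lies at -0.70 for glucose-starved *tup11∆/tup12∆/php5∆* cells, where *pka1* and *cgs1* are highest.

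The receptor gene *git3* (chromosome III, 1542333 to 1546095, minus strand) encodes the G protein-coupled receptor that senses glucose. Its level in wild-type cells was 22.8 TPM in glucose-rich medium, 47.0 TPM in glucose starvation and 30.8 TPM in nitrogen starvation. In *tup11∆/tup12∆* cells it was 24.8, 53.7 and 54.9 TPM, and in *tup11∆/tup12∆/php5∆* cells 30.4, 50.6 and 43.8 TPM. The glucose-rich libraries and wild-type nitrogen starvation were the 4 lowest. The glucose starvation ratios were 2.07, 2.17 and 1.66 in the 3 strains. With size factors they were 1.68, 1.95 and 2.66, so the calls and the order of the strains turned with the scaling. In TPM, *tup11∆/tup12∆* over wild-type was 1.09, 1.14 and 1.78 in the 3 media.

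The Gα gene *gpa2* (chromosome I, 2516053 to 2519239, minus strand) was the only member past 2-fold between *tup11∆/tup12∆* and wild-type cells in all 3 media. In the wild-type it was 42.3, 84.4 and 54.4 TPM in glucose-rich medium, glucose starvation and nitrogen starvation. *tup11∆/tup12∆* cells had 112, 199.8 and 229.5 TPM, and *tup11∆/tup12∆/php5∆* cells 92.6, 166 and 103 TPM. Every mutant library was above every wild-type library, and no neighbouring levels had overlapping intervals. *tup11∆/tup12∆* over wild-type was 2.64 (2.53 to 2.75) in glucose-rich medium, 2.37 (2.29 to 2.45) in glucose starvation and 4.22 (4.05 to 4.40) in nitrogen starvation. The last ratio was exceeded by 100 of the 5086 features tested. *tup11∆/tup12∆/php5∆* over *tup11∆/tup12∆* was 0.829 and 0.831 in the glucose media and 0.448 (0.432 to 0.464) in nitrogen starvation. In nitrogen starvation *gpa2* thus lay above 2 in one comparison of strains and below 0.5 in the next, and these ratios share the *tup11∆/tup12∆* library. With the 3 other scalings the nitrogen starvation ratios were 3.92 to 4.35 and 0.456 to 0.492, while 0.831 in glucose starvation became 1.32 with size factors and 1.19 with the upper quartile.

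*git5* (chromosome II, 1463849 to 1465745, plus strand) encodes the Gβ subunit, and its level followed the medium. It was 27.4, 45.5 and 63.0 TPM in wild-type, 21.5, 50.7 and 54.5 TPM in *tup11∆/tup12∆* and 34.1, 69.3 and 68.8 TPM in *tup11∆/tup12∆/php5∆* cells. The 3 glucose-rich libraries lay below all 6 starved ones, and wild-type cells had more *git5* in nitrogen than in glucose starvation. It was the gene with the lowest ratio of *tup11∆/tup12∆* to wild-type in glucose-rich medium, at 0.787 (0.732 to 0.846), where *gpa2* had the highest.

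The Gγ gene *git11* (chromosome II, 4030497 to 4031572, plus strand) is the shortest of the 10, with a coding length of 219 bases, and had 419 to 2657 reads. Wild-type cells had 28.8, 55.2 and 51.4 TPM, and *tup11∆/tup12∆/php5∆* cells 36.6, 113 and 57.6 TPM. *tup11∆/tup12∆* cells had 30.3 TPM in glucose-rich medium, 228 TPM in glucose starvation and 83.3 TPM in nitrogen starvation. The glucose-starved *tup11∆/tup12∆* library was the highest, also with size factors (237 against 186 for glucose-starved *tup11∆/tup12∆/php5∆* cells). There the level in TPM was 7.52-fold (6.81 to 8.32) that of glucose-rich cells of the same strain, a ratio exceeded by 128 features, and 4.13-fold (3.78 to 4.53) that of glucose-starved wild-type cells. *tup11∆/tup12∆/php5∆* over *tup11∆/tup12∆* was 0.495 (0.466 to 0.527) in glucose starvation, just past the threshold and with an interval that holds 0.5, and 0.787 with size factors.

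The 3 G protein subunits did not keep a fixed proportion. Their summed level was 98.5, 185 and 169 TPM in wild-type, 164, 479 and 367 TPM in *tup11∆/tup12∆* and 163, 348 and 229 TPM in *tup11∆/tup12∆/php5∆* cells. A ratio of 2 genes within a library does not depend on how libraries are scaled. It does depend on the gene lengths used, which are coding lengths. Whether reads on untranslated parts were counted is not given in the sources used here, so which of 2 genes has more mRNA is less certain than how their ratio differs between libraries. *git5* to *gpa2* was 0.646, 0.540 and 1.16 in wild-type cells, so that Gβ exceeded Gα in TPM in nitrogen starvation. In *tup11∆/tup12∆* cells the same ratio was 0.193, 0.254 and 0.238, and in *tup11∆/tup12∆/php5∆* cells 0.369, 0.418 and 0.669. *tup11∆/tup12∆/php5∆* cells lay above *tup11∆/tup12∆* cells in each medium and below wild-type cells in the same medium. *git11* to *git5* was 0.815 to 1.63 in 8 libraries and 4.50 (4.26 to 4.75) in glucose-starved *tup11∆/tup12∆* cells. Receptor to Gα, *git3* to *gpa2*, was 0.538 to 0.566 in the 3 wild-type libraries, 0.222 to 0.269 in *tup11∆/tup12∆* and 0.305 to 0.427 in *tup11∆/tup12∆/php5∆* cells. In wild-type cells the receptor and Gα mRNAs thus kept nearly 1 proportion across the media, and the ranges of the 3 strains did not overlap.

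**Figure D4:**
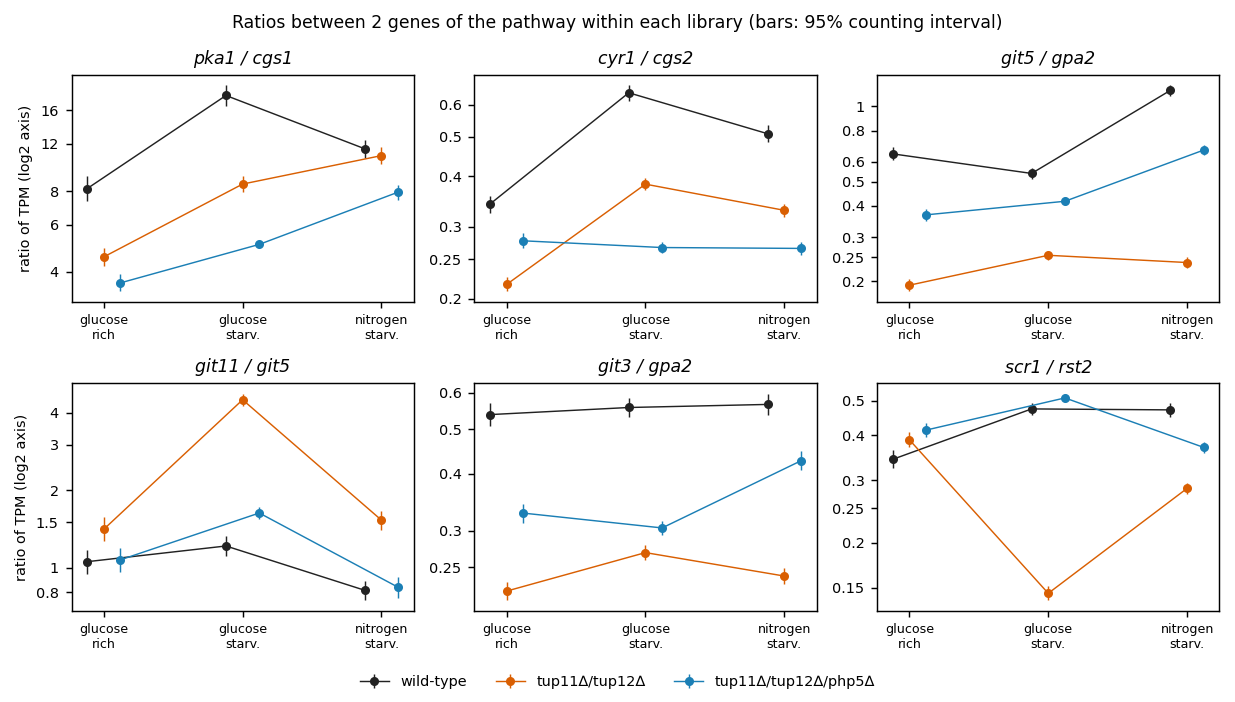
Ratio of TPM of 2 genes within each library (log2 axis, a range of its own in each panel) by medium and strain; each point is 1 library and bars are exact 95% counting intervals. The *git3* to *gpa2* ratio is flat at 0.538 to 0.566 in wild-type cells, *git11* to *git5* peaks at 4.50 and *scr1* to *rst2* dips to 0.145 in glucose-starved *tup11∆/tup12∆* cells.

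*cyr1* (chromosome II, 2819802 to 2825220, plus strand) encodes the adenylate cyclase, a protein of 1692 residues. Its level was 13.0, 32.5 and 22.6 TPM in wild-type, 14.4, 32.4 and 37.7 TPM in *tup11∆/tup12∆* and 16.4, 24.7 and 29.4 TPM in *tup11∆/tup12∆/php5∆* cells. The 3 glucose-rich libraries were the lowest and close together. Wild-type cells had more *cyr1* in glucose than in nitrogen starvation, and both mutants had the reverse order in TPM but not with size factors, where the levels in glucose and nitrogen starvation were 33.6 and 30.2 in *tup11∆/tup12∆* and 40.7 and 25.8 in *tup11∆/tup12∆/php5∆* cells. The wild-type ratios were 2.50 (2.41 to 2.59) and 1.74 (1.67 to 1.81), and under glucose starvation *tup11∆/tup12∆* over wild-type was 0.997 (0.967 to 1.03) in TPM and 1.25 with size factors.

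*cgs2* (chromosome III, 1810337 to 1812643, minus strand) encodes the cAMP phosphodiesterase and was the member that varied least with the medium in wild-type cells. It was 38.1, 50.6 and 44.4 TPM in wild-type, 66.4, 84.7 and 114 TPM in *tup11∆/tup12∆* and 59.2, 92.5 and 111 TPM in *tup11∆/tup12∆/php5∆* cells. Every mutant library was above every wild-type library, as for *gpa2*. *tup11∆/tup12∆* over wild-type was 1.74, 1.67 and 2.58 (2.45 to 2.71), and *tup11∆/tup12∆/php5∆* over *tup11∆/tup12∆* was 0.892, 1.09 and 0.967. The third of these was above 1 with size factors, at 1.06, so no direction is given.

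Set against each other in TPM, the gene of the enzyme that makes cAMP was below that of the enzyme that degrades it in every library. The limit on gene length given above holds here, and noncoding transcripts on the other strand overlap both genes. *cyr1* to *cgs2* was 0.341, 0.642 and 0.509 in wild-type, 0.217, 0.382 and 0.330 in *tup11∆/tup12∆* and 0.277, 0.267 and 0.266 in *tup11∆/tup12∆/php5∆* cells. In each medium the wild-type ratio was the highest. In *tup11∆/tup12∆/php5∆* cells it was within counting error across the 3 media, whereas in the other strains it was lowest in glucose-rich medium.

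The PKA regulatory subunit gene *cgs1* (chromosome I, 3643029 to 3645636, plus strand) encodes the subunit that holds Pka1 inactive, and it had the lowest level of the 10 in 8 of 9 libraries. Wild-type cells had 4.32, 8.35 and 10.2 TPM and *tup11∆/tup12∆* cells 8.45, 15.1 and 16.2 TPM. *tup11∆/tup12∆/php5∆* cells had 12.1 TPM in glucose-rich medium, 59.2 TPM in glucose starvation and 20.1 TPM in nitrogen starvation. The glucose-starved library of that strain stood apart from the other 8. Its ratio to glucose-rich cells was 4.88 (4.54 to 5.26), and its ratio to glucose-starved *tup11∆/tup12∆* cells was 3.91 (3.65 to 4.19), exceeded by 101 features. With the other scalings these were 5.30 to 7.80 and 3.89 to 6.21.

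*pka1* (chromosome II, 396992 to 398957, plus strand) encodes the catalytic subunit of PKA and was past 2 in all 6 starvation comparisons, the only member of the 10 for which this held. Wild-type cells had 35.3, 152 and 117 TPM, *tup11∆/tup12∆* cells 38.4, 129 and 176 TPM and *tup11∆/tup12∆/php5∆* cells 44.2, 299.9 and 159 TPM. The 3 glucose-rich libraries lay close together and far below the 6 starved ones, with no overlap. Glucose starvation ratios were 4.30 (4.14 to 4.47) in wild-type, 3.35 (3.23 to 3.47) in *tup11∆/tup12∆* and 6.79 (6.57 to 7.02) in *tup11∆/tup12∆/php5∆* cells. Nitrogen starvation ratios were 3.31 (3.19 to 3.44), 4.59 (4.42 to 4.76) and 3.61 (3.48 to 3.74). Ratios past 2 were kept under each of the 3 other scalings, the lowest being 2.78 in wild-type nitrogen starvation. In wild-type glucose starvation 242 of 5083 features had a higher ratio than *pka1*. *tup11∆/tup12∆* over wild-type was 1.09, 0.848 and 1.51, the second of which was 1.06 with size factors, and *tup11∆/tup12∆/php5∆* over *tup11∆/tup12∆* was 1.15, 2.33 (2.28 to 2.39) and 0.904.

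*pka1* mRNA exceeded *cgs1* mRNA in every library, by 8.17, 18.2 and 11.5 times in wild-type, 4.55, 8.50 and 10.8 times in *tup11∆/tup12∆* and 3.64, 5.07 and 7.93 times in *tup11∆/tup12∆/php5∆* cells. Within each strain the ratio was lowest in glucose-rich medium. Within each medium it was highest in the wild-type and lowest in *tup11∆/tup12∆/php5∆* cells, although in nitrogen starvation the intervals of the wild-type and *tup11∆/tup12∆* libraries overlapped (10.6 to 12.5 and 10.1 to 11.7).

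*rst2* (chromosome I, 1309681 to 1313429, plus strand) encodes the activator that PKA inhibits. Wild-type cells had 40.2, 105 and 69.9 TPM, *tup11∆/tup12∆* cells 51.7, 173 and 195 TPM and *tup11∆/tup12∆/php5∆* cells 64.7, 133 and 138 TPM. Its levels were all distinct beyond counting error, and within each strain the glucose-rich library was the lowest. In TPM the starved *tup11∆/tup12∆* libraries were the highest, whereas with size factors glucose-starved *tup11∆/tup12∆/php5∆* cells were, at 219 against 179 and 156, and the ratio of these strains in glucose starvation went from 0.770 to 1.22. The ratios in glucose starvation were 2.62, 3.34 and 2.06, and in nitrogen starvation 1.74, 3.77 and 2.14. *tup11∆/tup12∆* over wild-type in nitrogen starvation was 2.79 (2.71 to 2.87), and the ratio of *tup11∆/tup12∆/php5∆* to *tup11∆/tup12∆* there was 0.710 (0.692 to 0.729).

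*scr1* (chromosome II, 1752093 to 1755619, plus strand) encodes the repressor. Wild-type cells had 13.8, 49.9 and 32.9 TPM, *tup11∆/tup12∆* cells 20.1, 25.0 and 55.4 TPM and *tup11∆/tup12∆/php5∆* cells 26.8, 67.7 and 51.2 TPM. Glucose starvation gave the higher of the starved levels in wild-type and *tup11∆/tup12∆/php5∆* cells and by far the lower one in *tup11∆/tup12∆* cells. The glucose starvation ratios were 3.63 (3.42 to 3.85) in wild-type, 1.24 (1.17 to 1.32) in *tup11∆/tup12∆* and 2.53 (2.42 to 2.65) in *tup11∆/tup12∆/php5∆* cells. In nitrogen starvation they were 2.39, 2.76 and 1.91. *tup11∆/tup12∆* over wild-type was 1.46 in glucose-rich and 1.68 in nitrogen starvation medium, whereas in glucose starvation it lay at the lower threshold, with an interval of 0.475 to 0.527. *tup11∆/tup12∆/php5∆* over *tup11∆/tup12∆* in glucose starvation was 2.71 (2.59 to 2.84), and 2.70 to 4.31 with the other scalings.

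The proteins of the zinc-finger genes are alike in length, 567 residues for Rst2 and 565 for Scr1, as translated from the RefSeq genome. The C2H2 pattern searched (C, then C after 2 to 4 residues, H after 12 more, H after 3 to 5) matched 1 stretch of Rst2, residues 72 to 92, and 2 stretches of Scr1 between residues 28 and 78. Of the 21 residues of the Rst2 match, 14 (66.7%) were the same in the first Scr1 match, residues 28 to 48. The cysteines and histidines of the pattern are among these 14 by the way the stretches were found. The motif R-R-any-S or T, a form of PKA site, occurred 3 times in Rst2 and 0 times in Scr1, and once each in Git3 and Cgs1. Within libraries, *scr1* to *rst2* was 0.343, 0.474 and 0.471 in wild-type, 0.389, 0.145 (0.138 to 0.151) and 0.284 in *tup11∆/tup12∆* and 0.414, 0.509 and 0.370 in *tup11∆/tup12∆/php5∆* cells. In TPM the activator gene thus exceeded the repressor gene in all 9 libraries, most in glucose-starved *tup11∆/tup12∆* cells.

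The libraries do not keep the strand, so reads from annotated noncoding transcripts on the other strand count toward a gene. Such transcripts cover all of the coding sequence of *cgs2* and *scr1*, 94.3% of that of *cyr1*, 65.1% of *cgs1*, 63.2% of *git5* and 62.7% of *rst2*. They cover 14.8% of *git3*, 5.26% of *gpa2* and none of *git11* and *pka1*. Their part in the levels was not tested.

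The patterns of the levels over the 9 libraries were more alike for some pairs of members than for others. Over the 45 pairs of the 10 genes, Pearson's r of log2(TPM + 1) ran from 0.33 for *git5* with *gpa2* to 0.98 for *rst2* with *git3*, with a median of 0.75. The 9 points share their libraries, so these are descriptions. Among 4809 other features whose mean level was 10 TPM or more, the pattern most like *rst2* was that of *git3* (0.98), followed by *csc1* (0.97) and SPAC19G12.09 (0.96). For *scr1* they were *nep2* (0.97), SPAC26H5.09c (0.96) and *mal1* (0.96). For *cgs1* they were SPBP35G2.17 (0.98), *pyp2* (0.97), a phosphatase gene of the stress MAP kinase pathway, and *efr3* (0.96). For *cgs2* the values were lower, with *rem1* at 0.92, *pil1*, an eisosome gene, at 0.92 and *gms2* at 0.91. Spearman's correlation named 0 of the same 3 features for *rst2* and *cgs1*, 1 for *cgs2* and 2 for *scr1*.

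Other genes that act on cAMP signalling did not share 1 direction. Of the 5 listed (*git1*, *git7*, *hsp90*, *cap1*, *stm1*), 2 passed 2 in wild-type glucose starvation and 1 lay below 0.5, where 19.6% and 9.62% of all features did. That 1 was *hsp90*, the chaperone gene needed for glucose signalling, at 1695 TPM in glucose-rich, 194 TPM in glucose-starved and 477 TPM in nitrogen-starved wild-type cells. *stm1*, a receptor gene of nutrient sensing, had 188, 251 and 458 TPM in the 3 wild-type libraries, against 112, 53.4 and 263 TPM in those of *tup11∆/tup12∆* cells, a strain ratio of 0.212 in glucose starvation. *git7* had 41.5 TPM in glucose-starved *tup11∆/tup12∆* and 11.8 TPM in glucose-starved *tup11∆/tup12∆/php5∆* cells. In TPM the latter strain had 3 of the 5 below 0.5 in glucose starvation, where 38.1% of all features lay. With size factors 16.8% of all features lay there, and the ratios of these 5 genes were not rescaled.

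Among 6 genes of kinases that act beside PKA (*sck1*, *sck2*, *ssp1*, *ssp2*, *amk2*, *cbs2*), 3 passed 2 in wild-type glucose starvation and 2 in nitrogen starvation, against 19.6% and 18.7% of all features, and 0 lay below 0.5 in either. *amk2*, the AMP-activated kinase β subunit gene, had 143, 351 and 314 TPM in the wild-type libraries, and *sck1* had 43.0, 96.1 and 68.4 TPM. In glucose-starved *tup11∆/tup12∆/php5∆* cells 0 of the 6 passed 2, against 8.08% of all features. There *cbs2*, the γ subunit gene, had 106 TPM against 309 TPM in *tup11∆/tup12∆* cells. The ratios of these 6 genes were not rescaled. The size factor of that library was 0.606, against 0.969 for glucose-rich cells of the strain and 0.963 for glucose-starved *tup11∆/tup12∆* cells. With size factors both sets of ratios would be higher, so the count of 0 holds for TPM only.

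Of 3 further zinc-finger factor genes, *rsv1* and *rsv2* passed 2 in wild-type glucose starvation and *moc3* did not, against 19.6% of all features. *rsv1* stood at 1.86, 38.2 and 2.08 TPM in the wild-type libraries, a ratio of 20.5 in glucose starvation and 1.12 in nitrogen starvation. In *tup11∆/tup12∆* cells it had 10.2, 27.1 and 23.2 TPM. *rsv2* stood at 15.7, 46.7 and 37.5 TPM in the wild-type libraries and at 26.7, 328 and 62.8 TPM in *tup11∆/tup12∆/php5∆* cells, where its glucose starvation ratio was 12.3. In TPM the glucose-starved library of that strain was the highest for *rsv2*, as it was for *git5*, *cgs1*, *pka1* and *scr1*. For *git5* the interval overlapped that of nitrogen starvation in the same strain. With size factors the glucose-starved library was the highest for every member but *git11*. *moc3* stood at 43.5, 45.2 and 49.1 TPM in the wild-type and 31.4, 16.9 and 47.6 TPM in *tup11∆/tup12∆* cells.

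Genes that the pathway and its factors are known to control spanned a far wider range than the pathway genes. Of 6 (*fbp1*, *ste11*, *inv1*, *ght5*, *ght3*, *gld1*), 6 passed 2 in both wild-type starvations, where 19.6% (glucose) and 18.7% (nitrogen) of all features did. Their median log2 ratios were 7.75 in glucose and 1.86 in nitrogen starvation, against 0.31 and 0.32 over all features. *ght3*, a gluconate transporter gene, had 2.33, 1529 and 28.1 TPM in the wild-type libraries, *gld1*, a glycerol dehydrogenase gene, 2.46, 652 and 6.60 TPM, and *inv1*, the invertase gene, 8.03, 1738 and 24.6 TPM. In *tup11∆/tup12∆* over wild-type cells 5 of the 6 passed 2 in glucose-rich medium and 6 in nitrogen starvation, against 3.85% and 5.45% of all features. The study had picked *fbp1*, *ght3* and *gld1* from these same data by ratios past 2. Among these ratios were wild-type glucose starvation and *tup11∆/tup12∆* over wild-type in nitrogen starvation. For those genes the calls in these comparisons were set by the choice.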

How the data were processed

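Poly(A) RNA libraries without strand information were sequenced from 9 cultures. Per the labels and the study's methods, fastp, HISAT2, SAMtools and featureCounts were used on ASM294v2 with a PomBase annotation, only protein-coding genes were considered, and versions are not given in the sources used here. The authors deposited 1 table of TPM with the length of each feature. TPM times length came out as whole reads for 100% of values (tolerance 0.02 reads), and these reads gave exact Clopper-Pearson intervals for ratios and exact Poisson intervals for levels (95%).

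A ratio of TPM above 2 or below 0.5, with no pseudocount, was called. The fold is that of the study's methods, whose further limits on the level of a gene were not applied. The background was all features whose mean was 1 TPM or more. With 1 library per condition no test, SD or p-value was computed. The ratio calculation was tested on simulated data. The alternatives were pseudocounts of 1 and 10 TPM, size factors, the upper quartile, leaving out the 10 top features, a 1.5-fold threshold, other filters, Spearman's correlation and other promoter windows. The 1000-base window was added after the data were seen.

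All 10 members are named. From the lists of other genes, up to 3 past 2-fold in a wild-type starvation or strain comparison are named by size, and for likeness the 3 features of highest correlation. The members and lists were chosen with earlier results of these data known. 0 columns of per-sample values were left unused.

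Coordinates and sequences are from RefSeq ASM294v3. All 2724 coding genes of 1 segment compared had the same ends there as in the deposited table, and 5118 of 5145 coding genes had the deposited length. Proteins were translated from that genome. Intervals used scipy 1.17.1, tables pandas 2.3.3 and numpy 2.4.6, and plots matplotlib 3.10.9, under Python 3.11.15.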

Additional observations from a re-analysis of the deposited data

Results flagged for a closer look

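For 3 genes the ratio of *tup11∆/tup12∆/php5∆* to *tup11∆/tup12∆* cells was past 2-fold in one medium and on the opposite side of 1, beyond counting error, in another. Each ratio compares 1 library with 1, and the difference between media was not tested. For *git11* the log2 ratio was 1.28 lower under glucose starvation than in glucose-rich medium (a difference of -1.28). Its glucose starvation ratio of 0.495 was 0.493 to 0.787 with the other scalings. For *pka1* the log2 ratio under nitrogen starvation minus that under glucose starvation was -1.37. Its nitrogen starvation ratio of 0.904 was 0.920 to 0.992 with the other scalings. For *scr1* the difference between these 2 starvations was -1.55, and its nitrogen starvation ratio of 0.924 was 1.01 with size factors.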

How the results depend on the processing

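Leaving out a replicate could not be tried with 1 library per condition. No paired analysis was possible because the 2 conditions of a comparison share only 1 replicate number, and a fit with the 3 strains as blocks, which asks for a mean response over strains, was not made. The number of the 10 genes past 2-fold was within 1.5 times its value in all 12 comparisons with a pseudocount of 1 TPM, without the 10 top features, with a minimum mean of 10 TPM and with no filter. With a pseudocount of 10 TPM it went from 5 to 3 in wild-type glucose starvation, from 4 to 1 in wild-type nitrogen starvation, from 6 to 3 and from 8 to 5 in the glucose and nitrogen starvation of *tup11∆/tup12∆* cells, and from 3 to 1 in *tup11∆/tup12∆/php5∆* nitrogen starvation. Of all features, 12.0%, 11.7%, 11.3%, 18.9% and 8.69% then passed 2, in the same order. With size factors it was 2 in wild-type, 2 in *tup11∆/tup12∆* and 1 in *tup11∆/tup12∆/php5∆* nitrogen starvation, 10 in *tup11∆/tup12∆/php5∆* glucose starvation, and 2 and 5 for *tup11∆/tup12∆* over wild-type in glucose-rich medium and glucose starvation. With the upper quartile it was 2, 2 and 1 in the nitrogen starvation of the 3 strains, 3 in *tup11∆/tup12∆* glucose starvation, and 2 for *tup11∆/tup12∆* over wild-type in glucose-rich medium. The shares of all features past 2 were 12.8%, 13.8%, 8.32%, 12.3% and 4.29%, in the same order. With a threshold of 1.5 it was 9 and 7 in wild-type and 10 and 8 in *tup11∆/tup12∆/php5∆* glucose and nitrogen starvation, 3, 6 and 9 for *tup11∆/tup12∆* over wild-type in the 3 media, and 1 for *tup11∆/tup12∆/php5∆* over *tup11∆/tup12∆* in glucose-rich medium. The shares of all features past 1.5 were 35.5%, 35.3%, 12.5% and 30.4% in these starvations. They were 5.88%, 8.34% and 11.9% for *tup11∆/tup12∆* over wild-type in the 3 media, and 11.1% for the last comparison. Of the 6 genes in glucose starvation 1 was lower instead of higher, as were 27.8% of all features. Size factors and the upper quartile divide each library by a value set by its typical feature, and the cause of the other differences was not tested. Of the 43 calls, 28 were kept under all 3 other scalings, and no called ratio changed direction under any alternative. Of 120 ratios, 10 changed direction with size factors, 8 with the upper quartile and 1 without the 10 top features. In the 1000 bases before the start, the CRE was found in 6 of the 10 genes (14.9% of all promoters), the STRE in 5 (9.94%) and CCAAT in 9 (86.0%). Counting error is narrow beside most of the ratios, and the spread between cultures was not measured.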
